A study of Rattus norvegicus with 12 samples.

Results

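Sensory neurons that send their axons through the sciatic nerve have their cell bodies in the dorsal root ganglia (DRG), and the miR levels of single DRG were set side by side here between rats with the tibial-sparing variant of the spared-nerve injury (Tibial-SNI) and rats with Sham surgery. The arrays used were chosen by their labels and not by any value, and they are 8 of the 12 in the series, with 4 Tibial-SNI and 4 Sham arrays. The remaining 4 are Sural-SNI arrays, which were used only where the injuries were compared. All rats were adult male Sprague-Dawley rats, and all DRG of the arrays were taken on the injured side at Day 23. In Tibial-SNI the common peroneal and sural branches of the sciatic nerve were tied and cut while the tibial branch was left intact, in Sural-SNI the common peroneal and tibial branches were cut and the sural branch was left intact, and in Sham the nerve was laid bare with no branch cut. Each array held RNA of a single DRG, and each group had 2 arrays of the third lumbar DRG (L3-DRG), where the neurons of the uninjured saphenous nerve lie, and 2 of the fourth (L4-DRG), where many sciatic neurons lie. The study's tracer marked injured neurons in L4-DRG of injured rats and none in L3-DRG. A DRG holds neurons together with Schwann cells, satellite glia, blood vessels and immune cells, so a level is that of the whole ganglion. A change in the number of cells of a type and a change of RNA per cell cannot be told apart. The labels do not say which DRG came from the same rat, and DRG of the same rat would not be independent samples. The p-values given below measure only the spread of the differences between these arrays, and not the spread between rats.

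miRs are short RNAs that guide the Argonaute proteins to messenger RNAs by base pairing, mainly through the seed at bases 2 to 8, and they lower the translation or the stability of these targets. After a peripheral nerve is cut, the sensory neurons switch from signalling to regrowth, and macrophages and proliferating glia gather in the DRG. The study asked which miRs differ between an injury whose allodynia recovers and one whose allodynia persists.

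The mature sequences of the miRs on which the comparison turns are given 5′ to 3′ from RefSeq (build GRCr8), with the seed in capitals. They are shown because an assay reads 1 mature arm, which can come from more than 1 hairpin. The seed tells which other miRs could bind the same targets.
miR-222-3p: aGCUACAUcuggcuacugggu
miR-132-3p: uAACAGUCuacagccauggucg
miR-143-3p: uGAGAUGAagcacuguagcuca
miR-145-5p: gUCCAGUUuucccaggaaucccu
miR-133b-3p: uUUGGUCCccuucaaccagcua
miR-191a-5p: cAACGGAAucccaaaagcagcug
miR-425-5p: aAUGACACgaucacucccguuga
miR-103-3p: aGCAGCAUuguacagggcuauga
miR-340-5p: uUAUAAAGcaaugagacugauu
miR-325-3p: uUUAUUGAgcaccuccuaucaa
miR-129-2-3p: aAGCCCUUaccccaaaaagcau
miR-129-1-3p: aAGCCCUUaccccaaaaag
miR-139-3p: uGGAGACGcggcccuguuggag
The hairpin arm follows from the study's methods for miR-143, miR-145, miR-133b, miR-191 and miR-325 and from the assay name for miR-340-5p, miR-129-3p and miR-139-3p. The assay names of miR-222, miR-132, miR-425 and miR-103 give no arm, and the arm printed is the one that the plain name usually stands for. Both genes of miR-129 give a 3p arm with the same first 19 bases, so the assay cannot be assigned to one of them. Among the sequences shown, no other seed occurs on more than 1 line. In the RefSeq table the seed of miR-222 also occurs in miR-221, that of miR-132 in miR-212, that of miR-103 in miR-107 and that of miR-133b in miR-133a, of which only miR-133a is among the 154 assays analysed here. miR-222 lies at chrX:6022682-6022702 (plus strand), miR-132 at chr10:60522091-60522112 (plus strand), miR-103 at chr3:138963278-138963300 (plus strand) and miR-340-5p at chr10:34894668-34894689 (plus strand). miR-143 at chr18:57371373-57371394 (minus strand) and miR-145 at chr18:57370033-57370055 (minus strand) lie within 1471 bases, counted over both hairpins. miR-191 at chr8:118142641-118142663 (plus strand) and miR-425 at chr8:118143094-118143116 (plus strand) lie within 540 bases. miR-325 lies at chrX:74523537-74523558 (minus strand), miR-133b at chr9:30594629-30594650 (plus strand) and miR-139-3p at chr1:165290901-165290922 (plus strand).

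The files hold the threshold cycle (Ct) of 154 miR assays, all of which were analysed with no filter, beside 3 reference assays, MammU6 (the nuclear RNA U6), snoRNA135 and U87. The level of a miR is given as -ΔCt, the mean Ct of the 3 references minus the Ct of the miR, on which 1 unit is a factor of 2 and a higher value means more RNA. Arrays with the same DRG level and number were set against each other, so that there were 4 pairs, called L3 #1, L3 #2, L4 #1 and L4 #2, and every set of 4 values below follows this order. The difference of a pair is its log2(fold change), Tibial-SNI over Sham. In these 8 arrays the mean Ct of the miRs was 29.4 to 30.5 in those numbered 1 and 27.4 to 28.4 in those numbered 2, and miRs later than 35 cycles were 3 to 8 per array and 0 to 2 per array.

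No miR passed an adjusted p of 0.05 in Tibial-SNI against Sham by limma with the pairs as a block (0 of 154, 0%), and the smallest adjusted p was 0.600. At an unadjusted p under 0.05 there were 5 higher miRs (3.25% of those tested), miR-143, miR-222, miR-340-5p, miR-425 and miR-103, and 3 lower ones (1.95%), miR-325, miR-129-3p and miR-687. These 8 miRs are described below as the leading values and not as changed miRs. Above Sham in all 4 pairs were 28 miRs (18.2%), and below Sham in all 4 pairs were 5 (3.25%). The -ΔCt of the 4 Tibial-SNI arrays lay above all 4 Sham arrays for 2 miRs (1.3%), miR-143 and miR-24, and for 0 miRs (0%) below them. The median standard error of the mean log2(fold change) was 0.32, so a miR of usual precision needed 0.81 to reach an unadjusted p of 0.05, and miRs with a smaller spread reached it at less. An exact sign-flip test of a single miR cannot give a two-sided p below 0.125 with 4 pairs.

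miR-222, which is transcribed with miR-221 and is known to rise in DRG neurons after axotomy, had the most even response of the 8. Its -ΔCt was -1.75, -1.41, -1.65 and -1.03 in Sham and -0.92, -0.79, -1.06 and -0.36 in Tibial-SNI. Tibial-SNI was higher in each pair, and the groups overlapped because the Sham array of L4 #2 lay above the Tibial-SNI array of L4 #1. The log2(fold change) was 0.83, 0.62, 0.58 and 0.67, a mean of 0.68 ± 0.11 (SD, n = 4 pairs) or 1.6-fold (95% interval 1.1 to 2.32), with a limma adjusted p of 0.600. miR-132, an activity-dependent miR that promotes neurite growth, had a -ΔCt of -8.37, -2.12, -7.58 and -1.91 in Sham and -5.21, -1.89, -5.76 and -1.65 in Tibial-SNI. It was higher in 4 of 4 pairs, yet by 3.17 and 1.82 in the pairs numbered 1 and by 0.24 and 0.27 in those numbered 2, and its mean of 1.37 ± 1.41 (SD, n = 4 pairs), or 0.77 without L3 #1, had an adjusted p of 0.600. In the arrays numbered 1 the Ct of miR-132 was 32.1 to 34.6, against 26.1 to 26.9 in those numbered 2. miR-31, the third measured miR of the axotomy-linked list, had values of 0.63, 0.29, -0.68 and 0.15 and a mean of 0.10 ± 0.55 (SD, n = 4 pairs). Of the 5 miRs listed as linked to axotomy, miR-21 and miR-221 were not analysed here. The list had a median of 0.68, with 2 of 3 above Sham in every pair and 1 at an unadjusted p under 0.05. Over all 154 miRs the median was 0.23, 18.2% were above Sham in every pair and 8 had an unadjusted p under 0.05.

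miR-143 and miR-145, co-transcribed miRs that hold vascular smooth muscle cells in their contractile state, had the highest median among the lists. The -ΔCt of miR-143 was -3.56, -3.39, -4.01 and -3.13 in Sham and -2.39, -2.22, -3.06 and -2.82 in Tibial-SNI. All 4 Tibial-SNI arrays lay above all 4 Sham arrays, the lowest of them at -3.06 against -3.13 in the highest Sham array. The mean log2(fold change) of miR-143 was 0.90 ± 0.41 (SD, n = 4 pairs) or 1.87-fold (95% interval 1.19 to 2.93), with an adjusted p of 0.600, and the response of L4 #2 was 0.31 against 0.96 to 1.18 in the others. miR-145 had a -ΔCt of -2.01, 0.06, -2.40 and -0.04 in Sham and -0.99, 0.74, -1.35 and -0.09 in Tibial-SNI. It was higher in 3 of 4 pairs, with 1.02, 0.69, 1.05 and -0.05, a mean of 0.68 ± 0.51 (SD, n = 4 pairs) and an adjusted p of 0.600. The summed level of both miRs, as log2 of the sum of their 2 to the power -ΔCt, was -1.99 to 0.18 in Sham and -0.97 to 0.92 in Tibial-SNI, so the ranges overlapped. Both miRs of the endothelium, miR-126-3p and miR-126-5p, had means of 0.25 and 0.50, the latter above Sham in 4 of 4 pairs. The part of the vessels in the values of miR-143 and miR-145 was not tested.

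**Figure D1:**
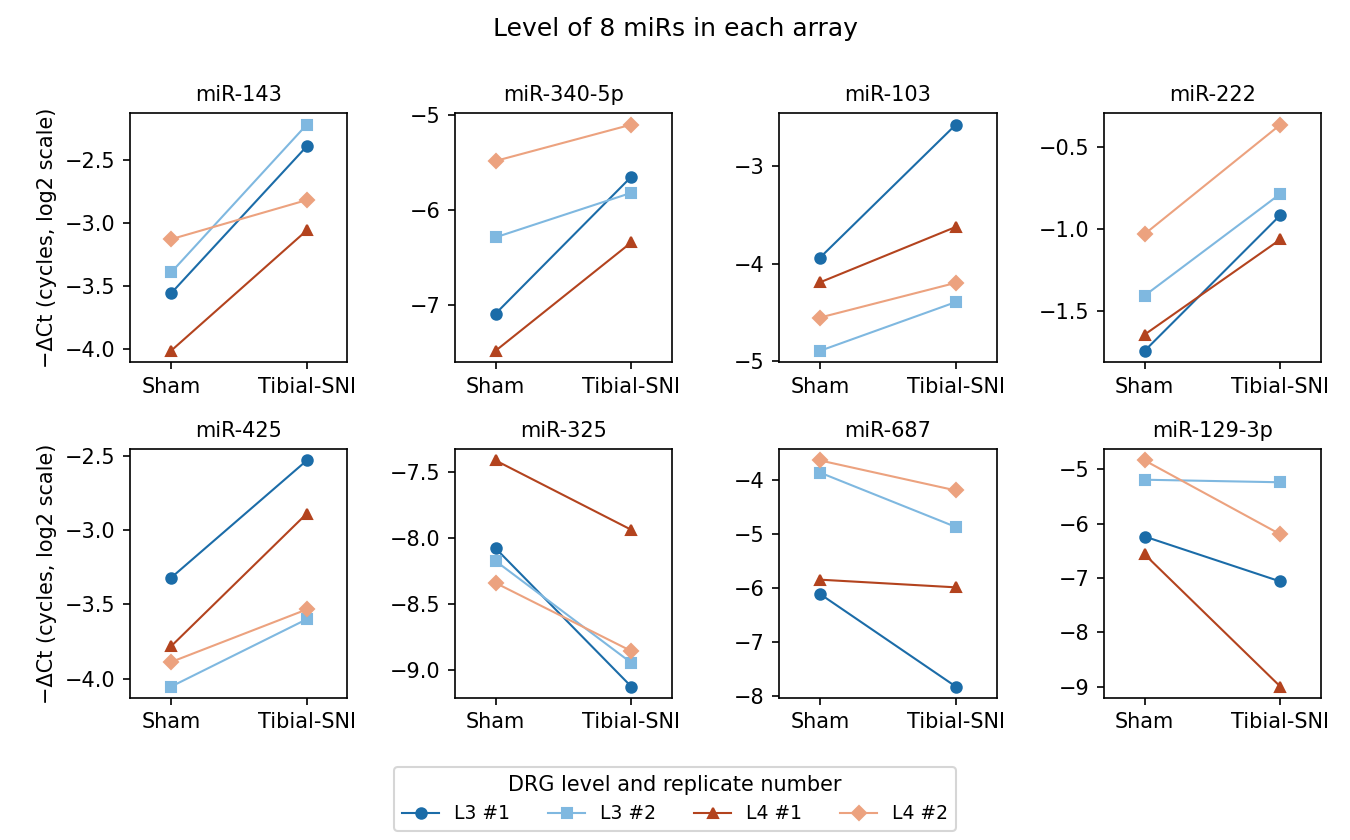
The -ΔCt in cycles (log2 scale, one scale per panel) of the 8 miRs with an unadjusted p under 0.05, with a line from the Sham array to the Tibial-SNI array of each of the 4 pairs. All 4 lines go up for miR-143, miR-340-5p, miR-103, miR-222 and miR-425 and down for miR-325, miR-687 and miR-129-3p, and no adjusted p was below 0.600.

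miR-191 and miR-425 are processed from neighbouring hairpins of 1 host transcript, and both were above Sham in 4 of 4 pairs. The -ΔCt of miR-425 was -3.32, -4.05, -3.78 and -3.89 in Sham and -2.53, -3.60, -2.89 and -3.53 in Tibial-SNI, and its log2(fold change) of 0.79, 0.45, 0.89 and 0.35 had a mean of 0.62 ± 0.26 (SD, n = 4 pairs) and an adjusted p of 0.600. For miR-191 the values were 0.70, 0.05, 0.62 and 0.88, with a mean of 0.57 ± 0.36 (SD, n = 4 pairs) and an adjusted p of 0.600. The smallest of these 8 values, 0.05 in L3 #2, is that of miR-191. miR-103, which lies in an intron of a pantothenate kinase gene and is known from insulin signalling, had a -ΔCt of -3.94, -4.89, -4.19 and -4.55 in Sham and -2.57, -4.39, -3.62 and -4.20 in Tibial-SNI. Its response was 1.36 in L3 #1 and 0.36 to 0.57 in the other pairs, with a mean of 0.70 ± 0.45 (SD, n = 4 pairs) and an adjusted p of 0.600. miR-340-5p had a -ΔCt of -7.10, -6.29, -7.49 and -5.48 in Sham and -5.65, -5.82, -6.34 and -5.10 in Tibial-SNI. It differed more in the pairs numbered 1 (1.45 and 1.14) than in those numbered 2 (0.47 and 0.38), a difference that was not tested, and its mean was 0.86 ± 0.52 (SD, n = 4 pairs) with an adjusted p of 0.600. miR-196c, from a HOX cluster, had 1.61, 0.56, 0.90 and 0.05, a mean of 0.78 ± 0.65 (SD, n = 4 pairs), or 0.50 without L3 #1, and an adjusted p of 0.600. miR-24, the second miR whose groups did not overlap, had 0.57, 0.18, 0.39 and 0.42 and a mean of 0.39 ± 0.16 (SD, n = 4 pairs), with an adjusted p of 0.644. Set against the mean Ct of all miRs in place of the references, miR-24 was above Sham in 2 of 4 pairs, at a mean of 0.15.

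On the lower side, miR-325 was below Sham in 4 of 4 pairs. Its -ΔCt was -8.08, -8.18, -7.41 and -8.34 in Sham and -9.13, -8.95, -7.94 and -8.86 in Tibial-SNI. The Tibial-SNI array of L4 #1 lay above 3 of the Sham arrays, so the groups overlapped although every pair pointed the same way. The log2(fold change) of -1.05, -0.77, -0.53 and -0.52 had a mean of -0.72 ± 0.25 (SD, n = 4 pairs) or 0.609-fold (95% interval 0.409 to 0.907) and an adjusted p of 0.600, at a Ct of 32.5 to 36.0 in these 8 arrays. miR-129-3p, which is enriched in neurons, had a -ΔCt of -6.24, -5.19, -6.57 and -4.84 in Sham and -7.06, -5.24, -9.0 and -6.20 in Tibial-SNI. The differences ran from -0.05 in L3 #2 to -2.43 in L4 #1, with a mean of -1.17 ± 1.0 (SD, n = 4 pairs) or 0.445-fold (95% interval 0.213 to 0.932) and an adjusted p of 0.600. Without L4 #1 the mean of miR-129-3p was -0.75. miR-687 had a -ΔCt of -6.11, -3.87, -5.85 and -3.64 in Sham and -7.82, -4.87, -5.99 and -4.20 in Tibial-SNI, with a mean of -0.85 ± 0.67 (SD, n = 4 pairs), or -0.57 without L3 #1, and an adjusted p of 0.600. The Sham arrays of miR-687 numbered 1 lay further below those numbered 2 than any Tibial-SNI array lay below its own Sham array.

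miR-139-3p and miR-10b were the other miRs below Sham in all 4 pairs. miR-139-3p had -0.17, -2.74, -0.49 and -0.12, so that its mean of -0.88 ± 1.25 (SD, n = 4 pairs) rests mainly on L3 #2, where the Sham array stood at -2.11 and the Tibial-SNI array at -4.85. Without L3 #2 the mean was -0.26. The 5p arm of the same hairpin, miR-139-5p, had 0.56, -0.23, 0.26 and 0.16 and a mean of 0.19 ± 0.33 (SD, n = 4 pairs), and the arms had the same sign in 1 of 4 pairs. miR-10b, from a HOX cluster, had -0.05, -0.30, -1.28 and -0.35 and a mean of -0.50 ± 0.54 (SD, n = 4 pairs), or -0.24 without L4 #1. Below Sham on average but not in every pair were miR-380-5p with 0.23, -0.58, -0.94 and -1.01, miR-382 with -0.05, 0.25, -2.00 and -0.76 and miR-672 with 0.07, 0.68, -0.27 and -4.65. miR-380-5p and miR-382 belong to the imprinted Dlk1-Dio3 cluster. The value of miR-672 in L4 #2 came from a Tibial-SNI array with a Ct of 36.4, against 31.2 in its Sham array. The mean of miR-672 was -1.04 over the 4 pairs and 0.16 without L4 #2, and that of miR-382 was -0.64 and, without L4 #1, -0.18. The adjusted p of these 5 miRs was 0.638 to 0.773.

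The 9 miRs that the study singled out between the injuries, measured by 10 assays, were chosen by the study on these same samples and are no independent evidence of a direction. The study measured them again by qPCR, where miR-130a and miR-325 showed no significant difference between the injuries. Of the 10 assays, 9 had a mean above 0, 3 were above Sham in all 4 pairs (miR-143, miR-191 and miR-193b), 1 was below in all 4 (miR-325) and 2 had an unadjusted p under 0.05. Over all 154 miRs 125 (81.2%) had a mean above 0, 18.2% were above and 3.25% below Sham in all 4 pairs, and 8 had an unadjusted p under 0.05. miR-193b had 0.61, 0.18, 0.35 and 0.27 and a mean of 0.35 ± 0.19 (SD, n = 4 pairs). miR-335-5p had 0.33, 0.72, -0.33 and 0.29 and miR-130a -0.91, -0.18, 0.66 and 0.65, with means of 0.25 and 0.05. The skeletal muscle miRs of this group were highest in 1 array. miR-133b had a -ΔCt of -4.39, -4.92, -4.43 and -4.16 in Sham and -3.58, -4.46, -2.05 and -4.39 in Tibial-SNI, and its log2(fold change) of 0.80, 0.46, 2.38 and -0.22 had a mean of 0.85 ± 1.10 (SD, n = 4 pairs), or 0.35 without L4 #1, and an adjusted p of 0.638. miR-1 had 0.34, -0.33, 3.91 and -0.46 by the rat assay and 0.49, -0.62, 1.37 and -0.65 by the mouse assay, and miR-133a had 0.45, -0.65, 2.73 and -0.20. All 4 muscle assays were highest in L4 #1, where their median was 2.55, against 0.47, -0.48 and -0.34 in L3 #1, L3 #2 and L4 #2. Their median log2(fold change) was 0.72 over the 4 pairs and -0.14 without L4 #1. The summed level of the muscle list was 0.59 to 1.73 in Sham and 0.01 to 4.41 in Tibial-SNI. The Tibial-SNI array of L4 #1 also had the highest level, among the 8 arrays, of miR-486, a miR of red blood cells and muscle, with a log2(fold change) of 1.39 against -0.56 to 0.46 in the other pairs. In the Sural-SNI array of L4 #1 miR-486 was as high, at 1.41 over the same Sham array. There miR-1 by the rat assay stood at -0.24, so the high miR-486 was not particular to the array with high muscle miRs. The part of muscle tissue in these values was not tested.

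Across all 154 miRs the values leaned towards Tibial-SNI. The mean log2(fold change) was above 0 for 125 miRs (81.2%) and below 0 for 29, with a median of 0.23. The lean was unequal between pairs, with medians of 0.63 in L3 #1, 0.35 in L3 #2, 0.09 in L4 #1 and -0.08 in L4 #2. The pairs did not rank the miRs alike, as the correlation of the log2(fold change) between 2 pairs across the 154 miRs was -0.16 to 0.20, a description over miRs that share arrays and references and are not independent.

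**Figure D2:**
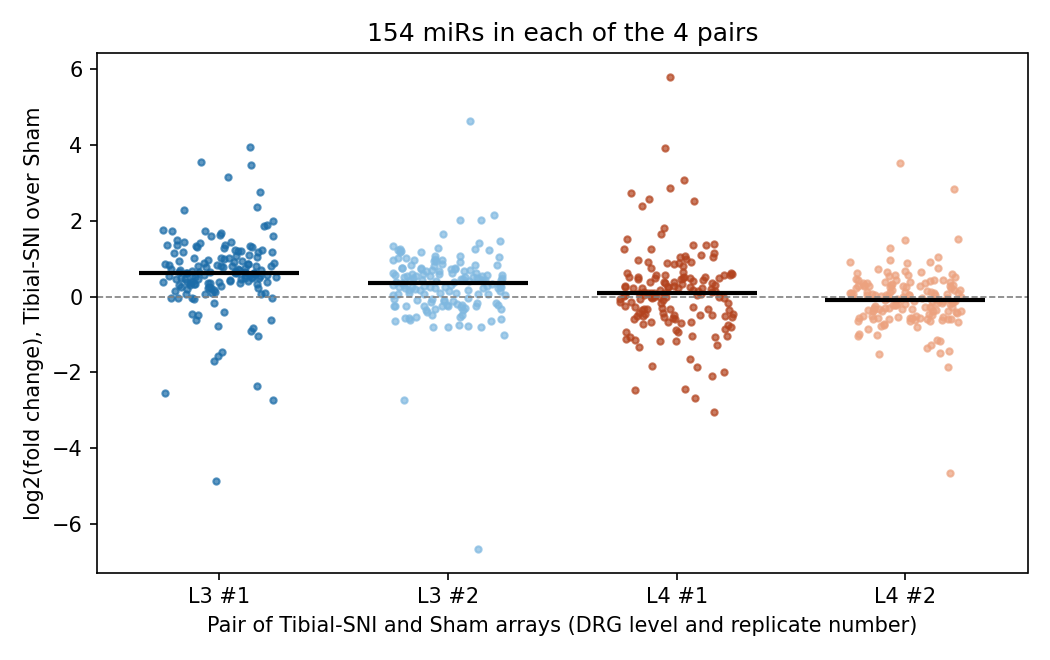
The log2(fold change), Tibial-SNI over Sham, of each of the 154 miRs (points) in each of the 4 pairs, with the median of the pair as a black line. The medians go from 0.63 in L3 #1 to -0.08 in L4 #2, and a few miRs lie more than 4 units from 0 in single pairs.

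The lean of single pairs depended on the reference. The Ct of MammU6 in Tibial-SNI minus Sham was 0.51, -0.33, 1.41 and -0.28 over the 4 pairs, that of snoRNA135 0.78, -1.0, 0.67 and 1.18 and that of U87 0.67, -0.46, 1.2 and 0.62, so the references pointed in opposite directions in L4 #2. Averaged over the pairs, the differences of these references were 0.33, 0.41 and 0.51. The mean log2(fold change) of a miR thus depended less on the choice among them than its value in a single pair did. With MammU6 alone 6.49% of the miRs were above Sham in L4 #2, and with snoRNA135 alone 89% were. The mean Ct of all miRs, used in place of the references, removes a common lean by construction, so the median under it says nothing about the lean. Set against that mean, the median of the mean log2(fold change) was 0.00, 11 miRs were above Sham in all 4 pairs and 10 below, and the miRs at an unadjusted p under 0.05 were 2 higher and 5 lower in place of 5 and 3. With U87 alone they were 17 higher and 1 lower. Of the 28 miRs above Sham in all 4 pairs, 10 were so with both the references and the all-miR mean, among them miR-143, miR-222, miR-340-5p, miR-425, miR-103 and miR-196c, and all 5 miRs below Sham in all 4 pairs were so with both. Relative to the all-miR mean the log2(fold change) of miR-143 was 0.67, that of miR-222 0.44, that of miR-325 -0.95 and that of miR-129-3p -1.40.

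**Figure D3:**
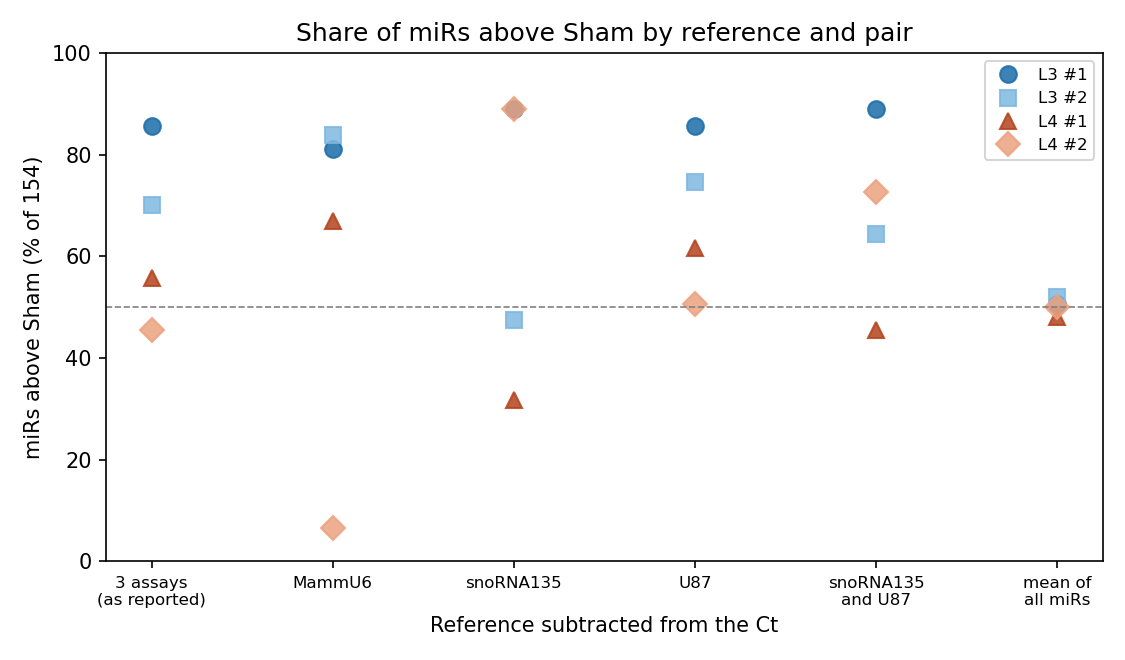
Percentage of the 154 miRs with a log2(fold change) above 0 in each of the 4 pairs (markers) under 6 choices of reference. L4 #2 lies at 6.49% with MammU6 and at 89% with snoRNA135, while with the mean of all miRs the 4 pairs lie between 48.1% and 51.9%. That mean removes a common lean by construction.

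The lists of cell type markers and families are given by their counts and median with no test of a list. They are read beside all 154 miRs, of which 81.2% had a mean above 0 and 18.2% were above Sham in all 4 pairs, at a median of 0.23. miR-182 and miR-183, which mark sensory neurons, were both measured in every array, as were all 154 miRs by the authors' selection. Presence alone therefore does not identify the tissue. The summed level of miR-182 and miR-183 was 1.88 to 2.08 in Sham and 1.40 to 2.59 in Tibial-SNI. Their means were -0.14 and -0.11, with pair medians of 0.48, -0.03, -0.60 and -0.34, while miR-96 was not analysed here. The 5 measured neuronal miRs had a median of 0.06, with 4 above 0, and the lowest was miR-129-3p. Schwann cell and glial miR-338-3p had 0.06, 0.43, -2.69 and 0.28 and miR-204 a mean of 0.17. The Tibial-SNI array of L4 #1, where miR-338-3p was lowest, read it at a Ct of 36.7. All 5 measured leukocyte miRs had a mean above 0, with a median of 0.33, which was 0.10 relative to the all-miR mean, and pair medians of 0.76, -0.18, 0.39 and 0.55. The highest was the myeloid miR-223, with 2.37, -0.23, -0.44 and 1.04, and the lowest was miR-155, with a mean of 0.10. miR-150, a lymphocyte miR, was the member above Sham in 4 of 4 pairs, at a mean of 0.33. The summed level of the leukocyte list was 1.70 to 2.14 in Sham and 1.85 to 2.48 in Tibial-SNI. The 4 stromal miRs all had a mean above 0, from 0.13 for miR-29c to 0.61 for miR-214, and miR-29a and miR-214 were above Sham in 4 of 4 pairs. None of the 154 miRs passed the adjusted threshold, so none of these members did.

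Among the families, let-7, which promotes differentiation and is held back by Lin28, had 7 of 9 means above 0 and a median of 0.47, from -0.16 for let-7e to 0.70 for let-7g. Without 1 pair the median of let-7 was as low as 0.06 (without L4 #1). Its pair medians were 0.95, 0.37, 0.24 and -0.14, so the 4 pairs stood in the same order as the medians of all miRs. The growth-promoting miR-17-92 family had 6 of 9 above 0 and a median of 0.23, with miR-17 (0.49) and miR-92a (0.51) above Sham in 4 of 4 pairs and miR-106b lowest (-0.36). The family of miR-15, miR-16 and miR-195, whose members slow the cell cycle, had 3 of 5 above 0 and a median of 0.32. miR-195 was at 0.48, 0.40, 0.45 and 0.47, the narrowest spread among the named members of this family, with a mean of 0.45 ± 0.03 (SD, n = 4 pairs) and a limma adjusted p of 0.600, while miR-15a spread from -0.33 to 3.96 and miR-497, whose hairpin lies beside that of miR-195, from -3.04 to 0.96. The 5 miR-30 members had a median of 0.23, the 4 of the miR-23, miR-24 and miR-27 families 0.27, the 4 of miR-130 and miR-301 0.09 and the 3 of the miR-99 and miR-125 families 0.05. The HOX cluster miRs held both directions, with miR-196b (0.52) and miR-196c above and miR-10b below Sham in 4 of 4 pairs. Of the imprinted Dlk1-Dio3 cluster 25 of 40 listed miRs were measured, 21 had a mean above 0, 4 were above Sham in all 4 pairs and the median was 0.12. Of the 154 assays 123 matched a RefSeq hairpin, and among the 17 groups of hairpins within 10 kb of each other, miR-191 with miR-425 was the one whose assays were all above Sham in all 4 pairs. Relative to the all-miR mean miR-191 was above Sham in 3 of 4 pairs.

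**Figure D4:**
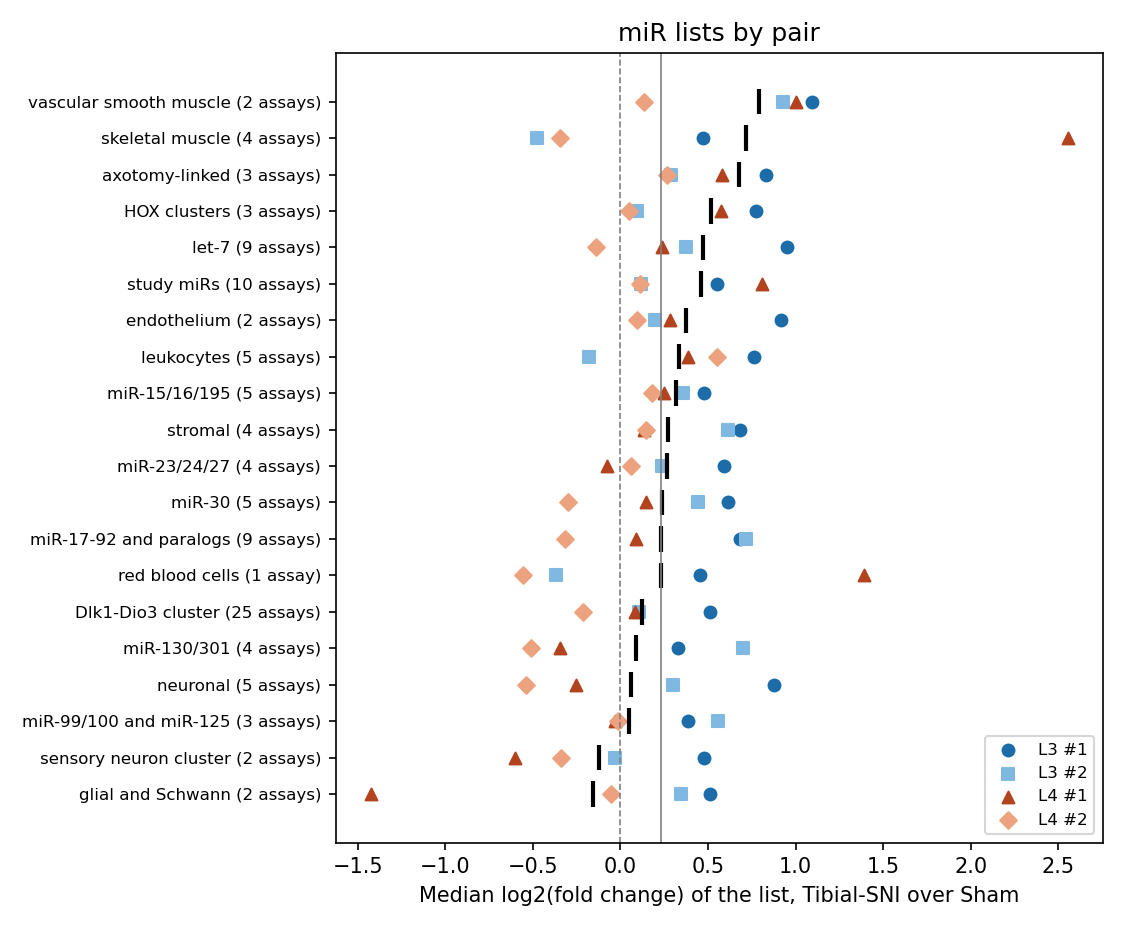
Median log2(fold change), Tibial-SNI over Sham, of 20 lists of miRs in each of the 4 pairs (markers), with the median of the members' means as a black bar, 0 as a dashed line and the median of all 154 miRs (0.23) as a grey line. The skeletal muscle list reaches 2.55 in L4 #1 and is below 0 in both pairs numbered 2, and L3 #1 lies above 0 for all 20 lists.

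Where the array held 2 assays of 1 hairpin or miR, the values of both are given side by side, also for assays chosen after their values were seen. The arms of miR-340 had means of 0.86 (5p) and 0.24 (3p) with the same sign in 2 of 4 pairs, and the 3p arm had 1.73, 0.17, -0.48 and -0.47. Both assays of miR-1, for rat and for mouse, had the same sign in 4 of 4 pairs but differed by up to 2.54 within a pair, and those of miR-351 had means of 0.43 and 0.33 with the same sign in 3 of 4. The spread of the 4 paired values grew with the Ct. Its median over miRs was 0.42 for the 22 miRs with a mean Ct up to 26 and 1.42 for the 17 above 32. miR-325, miR-129-3p and miR-687 were read up to a Ct of 36.0, 35.4 and 34.7, and miR-143, miR-222 and miR-425 never above 30.

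The response in L4-DRG was then set against that in L3-DRG. No miR passed an adjusted p of 0.05 by limma (smallest 0.542). At an unadjusted p under 0.05 there were 12 miRs (7.79%) with a lower log2(fold change) in L4-DRG and 0 (0%) with a higher one, and the difference was below 0 for 111 of the 154 miRs, with a median of -0.47. With the mean Ct of all miRs as reference they were 7 lower and 4 higher. miR-130b had 1.99, 2.02, -2.46 and -0.61, a difference of -3.54 between the levels (adjusted p = 0.542), and its Ct reached 35.3 in these arrays. miR-34a, a target of p53, had 2.29, 1.08, -1.06 and -0.60 and a difference of -2.51 (adjusted p = 0.542). Both were above Sham in each L3-DRG pair and below it in each L4-DRG pair. The values that were higher in L4-DRG with the smallest p were those of miR-130a, with a difference of 1.2, and miR-207, with -0.49, -0.09, 0.48 and 1.52 and a difference of 1.29 (adjusted p = 0.550 for both). For the leading miRs of Tibial-SNI against Sham, the L3-DRG and L4-DRG means were 1.17 and 0.63 for miR-143, 0.73 and 0.63 for miR-222, 0.62 and 0.62 for miR-425 and -0.91 and -0.52 for miR-325. The difference between levels had an adjusted p of 0.730 to 1.000 for these 4 miRs, and with 2 pairs per level it was known to a standard error of 0.48 to 0.52. With the number as a block, an alternative chosen after seeing the data, 1 miR passed the adjusted threshold, miR-685, higher in L4-DRG by 4.34 with an adjusted p of 0.0165 by limma. That fit leaves few residual degrees of freedom, so its p rests mainly on the variance pooled over miRs. Without the block the adjusted p of miR-685 by limma was 0.571. Without L4 #1 1 miR passed (miR-672, lower), and without L4 #2 4 did (miR-1 by the rat assay and miR-337-3p higher, miR-130b and miR-497 lower). miR-685, named after its values were seen, had -0.04, -6.66, 1.65 and 0.31, the low value coming from a Tibial-SNI array with a Ct of 37.5 in L3 #2.

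Tibial-SNI was also compared directly with Sural-SNI within the 4 pairs, without Sham. No miR passed an adjusted p of 0.05 (0 of 154, 0%). At an unadjusted p under 0.05 there were 4 miRs higher in Tibial-SNI (2.6%), miR-133b, miR-143, miR-574-3p and miR-207, and 2 lower (1.3%), miR-325 and miR-139-3p. With the mean Ct of all miRs as reference they were 2 higher and 4 lower, and with MammU6 alone 1 and 3. miR-325 had the smallest adjusted p, 0.071, and a difference of -1.49 (95% interval -1.98 to -0.99), lower in 4 of 4 pairs. With all 12 arrays in 1 fit its adjusted p by limma was 0.00365, and with the number as a random block, whose estimated correlation was -0.29, 0.0254. Without the replicate block the adjusted p of miR-325 by limma was 0.721. Over the 14 alternatives run on miR-325 the difference was -1.64 to -1.38. Its adjusted p was under 0.05 only with all 12 arrays and with the random block. The Ct limits left miR-325 out, as it was read up to a Ct of 36.0. In the study's own qPCR miR-325 did not differ significantly between the injuries, also where the RNA of the arrays was used. Against the same Sham arrays miR-325 stood at -1.05, -0.77, -0.53 and -0.52 in Tibial-SNI and at 0.76, 0.80, 0.78 and 0.74 in Sural-SNI. miR-143 stood at 1.17, 1.18, 0.96 and 0.31 and -0.75, -0.25, -0.25 and 0.58, a difference of 1.07 with an adjusted p of 0.776, and Tibial-SNI was higher in 3 of 4 pairs. miR-133b differed by 1.61 (interval 0.21 to 3.00) and was higher in 4 of 4 pairs, with 2.38 in Tibial-SNI and -1.26 in Sural-SNI in L4 #1, without which the difference was 0.93. miR-139-3p differed by -0.83 and was lower in 4 of 4 pairs, and in L3 #2 it was below Sham in both injuries, at -2.74 and -1.43. miR-574-3p and miR-207 differed by 0.69 and 1.11 (0.74 for miR-207 without L3 #2), each higher in 3 of 4 pairs, and miR-574-3p was named after its values were seen.

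The values in Sural-SNI and the difference between the injuries, Tibial-SNI minus Sural-SNI, are given for the other 6 of the 8 leading miRs and for miR-132. miR-222 was at 0.44, 0.66, 0.43 and 0.66 in Sural-SNI, with a difference between the injuries of 0.13 (95% interval -0.34 to 0.60). miR-340-5p was at 1.01, 0.54, 1.42 and 0.05, with a difference of 0.11 (interval -0.43 to 0.64). For both miRs the difference was smaller than their mean over Sham. miR-425 was at -0.46, 0.33, 0.13 and 0.44, with a difference of 0.51 (interval -0.21 to 1.23). miR-103 was at 1.02, 0.71, -0.22 and -0.17, with a difference of 0.36 (interval -0.23 to 0.94). Both were higher in Tibial-SNI in 3 of 4 pairs. miR-129-3p was at -0.17, -1.21, 0.11 and -0.99, with a difference of -0.60 (interval -2.09 to 0.89). miR-687 was at 0.49, -0.96, -1.28 and -0.53, with a difference of -0.28 (interval -1.66 to 1.09). Both were lower in Tibial-SNI in 3 of 4 pairs. miR-132 was at 1.33, 0.59, 1.65 and -0.31, again higher in the pairs numbered 1, with a difference of 0.56 (interval -0.41 to 1.53). All 7 intervals hold 0, which does not show that the injuries act alike on these miRs. The log2(fold change) values of both injuries share the Sham arrays, and a Sham array that stands apart moves both in the same direction.

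**Figure D5:**
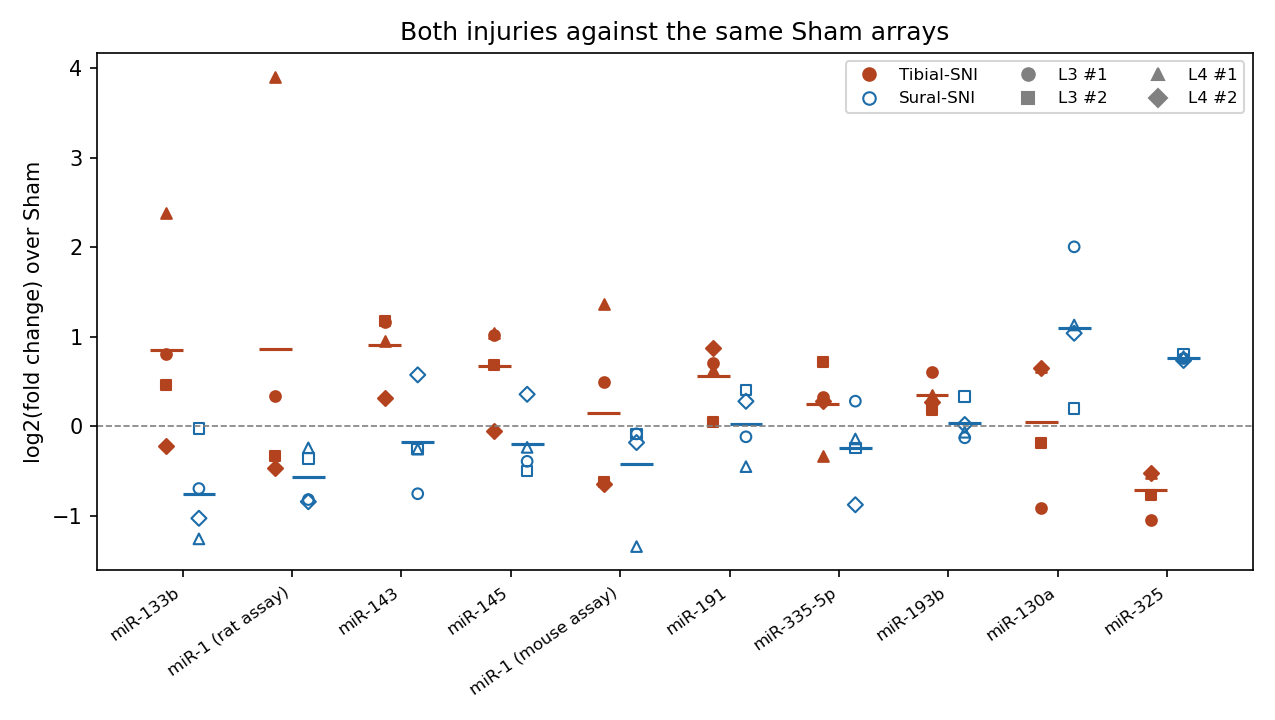
The log2(fold change) over Sham of the 10 assays of the study's 9 miRs in Tibial-SNI (filled) and Sural-SNI (open), with 1 marker shape per pair and the mean as a line. Both injuries are set against the same Sham arrays, miR-325 lies below 0 in all 4 Tibial-SNI pairs and above 0 in all 4 Sural-SNI pairs, and miR-133b and miR-1 by the rat assay are highest in the Tibial-SNI array of L4 #1.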

How the data were processed

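Total RNA of single DRG was read by TaqMan rodent miR arrays (quantitative PCR cards), 1 array per DRG. The deposited table holds Ct values (cycle numbers, not normalized by the authors) for 160 wells (154 miR assays and 6 wells of 3 reference assays, MammU6 filling 4), and the authors kept only the miRs detected in every array, with 40 cycles run. A second deposited file holds the authors' own fold changes and was not used. From the Ct values, -ΔCt was computed as the mean Ct of MammU6 (its 4 wells averaged first), snoRNA135 and U87 minus the Ct of the miR. Late Ct values are imprecise, and any change in a reference moves all miRs of an array alike. Tibial-SNI was compared with Sham over all 154 miRs by the moderated linear models of limma (version 3.58.1, R version 4.3.3), two-sided and with Benjamini-Hochberg adjustment. The 4 pairs of like level and number formed the block, leaving 3 residual degrees of freedom. The same test was run on the difference between levels and on Tibial-SNI against Sural-SNI. Arrays of a number deviated together. Deviations from the group means correlated at 0.46 to 0.68 between Tibial-SNI and Sham arrays of the same level and number and at 0.62 to 0.75 across levels within a number. Between arrays of different numbers the correlation was -0.75 to -0.55, a sign that centering on the group mean favours. These values show a shift shared by a number and do not show that the level adds to the pairing. The miRs named were the 9 of the study, up to 8 per direction by p, up to 3 per direction by mean among those of 1 sign in 4 pairs, up to 2 per direction by p in the level comparison, and members of the lists. Members and lists were chosen with earlier results of these data known. Clusters and sequences came from RefSeq (GRCr8). The test was checked on simulated data with independent noise and planted changes larger than any mean seen here. That check does not speak to smaller changes. Alternatives were other references, Ct limits of 35 and 32, other blocks and leaving out each pair.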

Additional observations from a re-analysis of the deposited data

Results flagged for a closer look

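The log2(fold change) of miR-139-3p was -2.74 in L3 #2 and -0.49 to -0.12 in the other 3 pairs, a gap of 0.855 of the whole range, which is the only one of 23 named assays in which 1 of the 4 pairs stood apart from the others by Dixon's criterion at 95%. Chance alone sets apart about 1 group in 20. The value came from a Sham array at a -ΔCt of -2.11 and a Tibial-SNI array at -4.85, and the Sural-SNI array of L3 #2 also lay below the same Sham array, at a log2(fold change) of -1.43. No cause was tested.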

How the results depend on the processing

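In Tibial-SNI against Sham, 0 miRs passed the adjusted threshold in 18 of the 19 alternatives run. The exception was a one-sample test without moderation, with 1 miR, miR-195 (adjusted p = 0.0169, higher), and 15 at an unadjusted p under 0.05. Against 8 miRs at an unadjusted p under 0.05, there were 5 with MammU6 alone, 5 with snoRNA135 alone, 18 with U87 alone, 15 with all 12 arrays and the replicate block, 20 with a random block of the number (estimated correlation -0.27), 5 and 3 with number 1 or number 2 alone and 5 with the mean of both Sham arrays of a level. Without the replicate block the count was 2, with 0 at the adjusted threshold, and the block changed no adjusted call in this comparison. Leaving out 1 pair gave 4 to 13, with 4 without L3 #1, 4 without L4 #1 and 13 without L4 #2. Of the 8, the alternatives shared 0 to 8. Of the 23 named assays 18 kept their direction in every alternative run on them, where the Ct limits of 32 and 35 kept 12 and 19 of the 23. Ct limits, other blocks, the 12-array fit, the unmoderated test and the mean of both Sham arrays leave the mean of a miR unchanged. Only other references, left-out pairs and single numbers could turn a direction. miR-1 by the mouse assay turned to -0.087 with the all-miR mean and to -0.63 with number 2 alone, and by the rat assay to -0.40 with number 2 alone. miR-130a turned to -0.035 with MammU6, -0.18 with the all-miR mean and -0.13 with number 1 alone, and miR-335-5p to -0.0022 with number 1 alone. Leaving out a pair gave -0.26 to 0.41 for miR-1 (mouse assay), -0.15 to 1.31 (rat assay), -0.15 to 0.37 for miR-130a and -1.62 to 0.16 for miR-672, which turned without L4 #2. For L4-DRG against L3-DRG, against 0 adjusted and 12 unadjusted, there were 5 unadjusted with MammU6 alone, 1 adjusted (miR-685) and 4 unadjusted with snoRNA135 alone, 3 unadjusted with snoRNA135 and U87, and 1 adjusted and 5 unadjusted with the replicate block, which was chosen after seeing the data. Leaving out 1 pair gave 0 to 4 adjusted and 8 to 21 unadjusted (21 without L4 #2), with 1 adjusted without L4 #1 (miR-672, lower) and 4 adjusted without L4 #2 (miR-1 by the rat assay and miR-337-3p higher, miR-130b and miR-497 lower), where the lone L4-DRG pair was assumed to vary like the others. For Tibial-SNI against Sural-SNI, against 0 adjusted and 6 unadjusted, there was 1 adjusted (miR-325) with all 12 arrays, 1 adjusted (miR-325) and 15 unadjusted with a random block, and 2 unadjusted without the replicate block. Leaving out 1 pair gave 3 to 15, with 3 without L3 #1 and 15 without L3 #2. The fold changes deposited by the authors were planned as another input and were not run, because that file holds the authors' own comparison. Late Ct values limit the precision, with a median standard error of 0.26 up to a mean Ct of 26 and 0.56 above 32.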
